A study of Mus musculus with 32 samples.

Results

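The comparison described here is that of sciatic nerves carrying both the C3-PMP22 transgene and the labelled Sipa1l2 -/- genotype (the double mutant) with wild type (WT) nerves. The samples were chosen by their titles, which name 8 double mutant and 7 WT samples among the 32 libraries of the series, and all genes of the deposited table were considered. The double mutants were 5 females and 3 males, and the WT mice were 4 females and 3 males. All mice were 6 months old. The C3-PMP22 transgene adds copies of human PMP22 and models CMT1A (Charcot-Marie-Tooth type 1A), a neuropathy that in patients comes from a duplicated PMP22 gene. The study's title names SIPA1L2 as a candidate modifier of that disease. Polyadenylated RNA of each nerve was sequenced as 150-base paired reads, and the table gives 1 RSEM estimated count per mouse gene and library. Nothing in the labels says if human PMP22 reads were counted toward mouse Pmp22. The other 17 libraries were nerves with the C3-PMP22 transgene alone (8) or with the Sipa1l2 -/- genotype alone (9), and they were kept in the fit for a shared estimate of the spread.

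Myelinating Schwann cells wrap the large axons of peripheral nerves and build a membrane that is rich in cholesterol, most of which they synthesise themselves. PMP22 is a membrane protein of compact myelin, and its overexpression impairs myelination. SIPA1L2 belongs to a family of GTPase-activating proteins for the small GTPase Rap. When Schwann cells lose contact with axons or are injured, they lower myelin genes and raise genes of an immature or repair state, while macrophages in the nerve take up myelin debris.

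Total counts per library were between 11310787 and 14326605 in the double mutants (median 13520308) and between 12274390 and 16990990 in WT (median 13091641). After the filter on low counts 15403 of 45706 genes were tested. Levels are given in CPM, the gene's count as a share of its library's total, scaled by trimmed mean of M values (TMM) factors. Log2 fold changes and standard errors (SE) came from edgeR's quasi-likelihood test with labelled sex as a term, and a gene is said to rise or fall where its Benjamini-Hochberg adjusted p over all tested genes was under 0.05. Genes of the sex chromosomes matched the labelled sex in all 15 libraries compared, and 2 C3-PMP22 libraries labelled female (7 and 8) did not match it. Library identifiers in the column headers form a plain series and a series with a leading G. All 5 female double mutants carried plain identifiers and all 3 males G identifiers, so that sex and identifier series cannot be told apart within the double mutants, whereas WT libraries of both sexes occurred in both series. The labels do not say what the identifiers stand for. The labels give each library as its own sample, without stating whether each came from a separate animal, so p-values measure the spread between these samples.

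Sipa1l2 transcripts were not lower in the libraries labelled as double mutant. Sipa1l2 (ENSMUSG00000001995, chromosome 8, 125418063 to 125569808, minus strand, GRCm38) was at 43.5, 71.7 and 149 CPM in double mutants (lowest, median and highest library), against 65.2, 73.4 and 122 CPM in WT. Its log2 fold change was 0.01 ± 0.24 (SE; 95% interval -0.48 to 0.49). A gene count does not show whether these transcripts can be translated, and the labels do not say which part of the gene was disrupted. In the same libraries Pmp22 (ENSMUSG00000018217, chromosome 11, 63128982 to 63159547, plus strand) was at 831, 1549 and 3932 CPM in double mutants, against 2184, 3021 and 5154 CPM in WT. The groups overlapped, and the log2 fold change of -0.71 ± 0.30 did not pass the test (edgeR adjusted p = 0.245). The tissue label was borne out by Schwann cell markers: the 26 myelin protein genes summed to at least 6995 CPM in every double mutant and 18130 CPM in every WT library.

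Across all genes, 213 of 15403 differed between double mutant and WT nerves (1.38%), of which 80 were higher (0.519%) and 133 were lower (0.863%). At least 2-fold differences were fitted for 35 of the higher and 48 of the lower genes, and the median log2 fold change over all tested genes was 0.006. The median 95% interval extended 0.32 on the log2 scale to either side of the fitted value. Protein-coding genes made up 205 of the 213. In 74 genes (0.48%) the levels of the 8 double mutants and the 7 WT libraries did not overlap, 42 of them higher (0.273%) and 32 lower (0.208%) in the double mutants. Leaving out single libraries gave between 112 and 293 called genes. The count was 126 without double mutant 2, 141 without double mutant 8, 122 without WT 4, 115 without WT 5 and 112 without WT 6, and scaling to total counts instead of TMM gave 118 calls with 28.8% of them higher, against 37.6% with TMM.

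**Figure D1:**
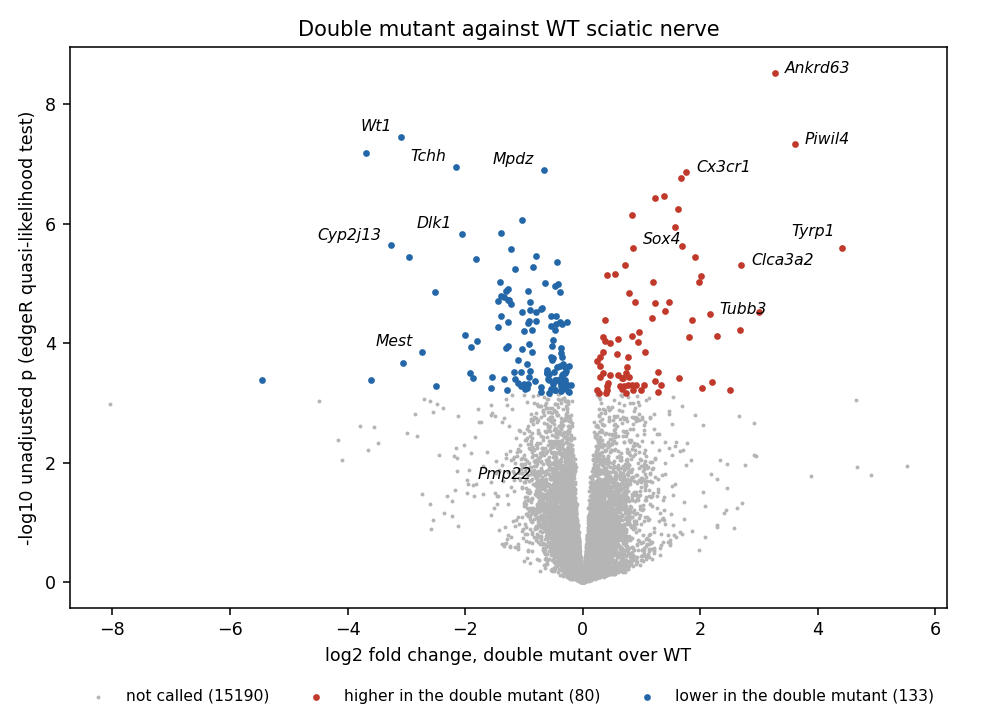
Log2 fold change of double mutant over WT nerves (horizontal axis) against the unadjusted p as -log10 (vertical axis) for the 15403 tested genes, with the 80 higher and 133 lower genes coloured. Piwil4 and Ankrd63 stand far to the right, and Wt1 and Cyp2j13 far to the left.

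Among called genes averaging at least 1 CPM, the strongest rises were in genes of low level in WT nerve. Ankrd63, which encodes an ankyrin repeat protein, was at 4.30, 7.13 and 8.16 CPM in double mutants, against 0.339, 0.716 and 1.02 CPM in WT. Every double mutant library lay above every WT library, and the log2 fold change of 3.27 ± 0.39 had the smallest adjusted p of all genes (4.58e-05). Piwil4, a member of the PIWI family that binds small RNAs in the germ line, was at 1.41, 3.17 and 18.9 CPM in double mutants and 0.280, 0.474 and 0.651 CPM in WT. The groups did not overlap (3.61 ± 0.50, adjusted p = 0.000234), although the double mutants ranged widely, with double mutant 7 far above the others. Tubb3, the class III beta-tubulin of neurons, was at 4.82, 7.98 and 14.7 CPM in double mutants, against 1.02, 1.56 and 3.19 CPM in WT. Again no library of one group reached the other (2.17 ± 0.44, adjusted p = 0.00806).

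Several channel, receptor and signalling genes rose with them. Kcnj10, which encodes the inwardly rectifying potassium channel Kir4.1 of glial cells, was at 5.47, 12.1 and 38.5 CPM in double mutants and 1.31, 3.16 and 6.09 CPM in WT, with little overlap (2.01 ± 0.37, adjusted p = 0.00353). The calcium-activated chloride channel regulator Clca3a2 rose by 2.70 ± 0.48 (adjusted p = 0.00268), and its values in double mutants were uneven, at 1.5, 5.48 and 22.1 CPM against 0.584, 0.769 and 1.89 CPM in WT. Semaphorin 4F (Sema4f, 1.90 ± 0.34), the secreted EMI-domain protein Emid1 (1.98 ± 0.37), the muscarinic acetylcholine receptor Chrm1 (1.86 ± 0.39) and the protein phosphatase 2A regulatory subunit Ppp2r2c (1.81 ± 0.40) each rose at adjusted p between 0.00230 and 0.0136. Kcnj10, Sema4f, Emid1 and Ppp2r2c had log2 fold changes of 0.90 to 1.02 within plain identifiers and 2.91 to 3.21 within G identifiers. When double mutants and WT were fitted alone Chrm1 did not pass (adjusted p = 0.0578). Epyc, a small proteoglycan of cartilage matrix, rose to 8.03, 22.4 and 30.5 CPM in double mutants, against 4.30, 6.14 and 10.4 CPM in WT (1.69 ± 0.29, adjusted p = 0.00194). The secreted serine protease Klk8 and the calcium-binding protein S100a4 rose without overlap of the groups. Klk8 was at 2.41, 3.70 and 6.4 CPM in double mutants and 0.584, 1.40 and 1.89 CPM in WT (1.67 ± 0.25, adjusted p = 0.000330), and S100a4 at 95.8, 145 and 286 CPM in double mutants and 43.7, 60.8 and 88.1 CPM in WT (1.23 ± 0.19, adjusted p = 0.000562). The progesterone receptor Pgr also passed the test (2.20 ± 0.56, adjusted p = 0.0408), but leaving out any 1 of 10 libraries (double mutants 2, 3, 5 and 8 and WT 1, 2, 3, 4, 6 and 7) ended its call (adjusted p 0.0554 to 0.118).

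**Figure D2:**
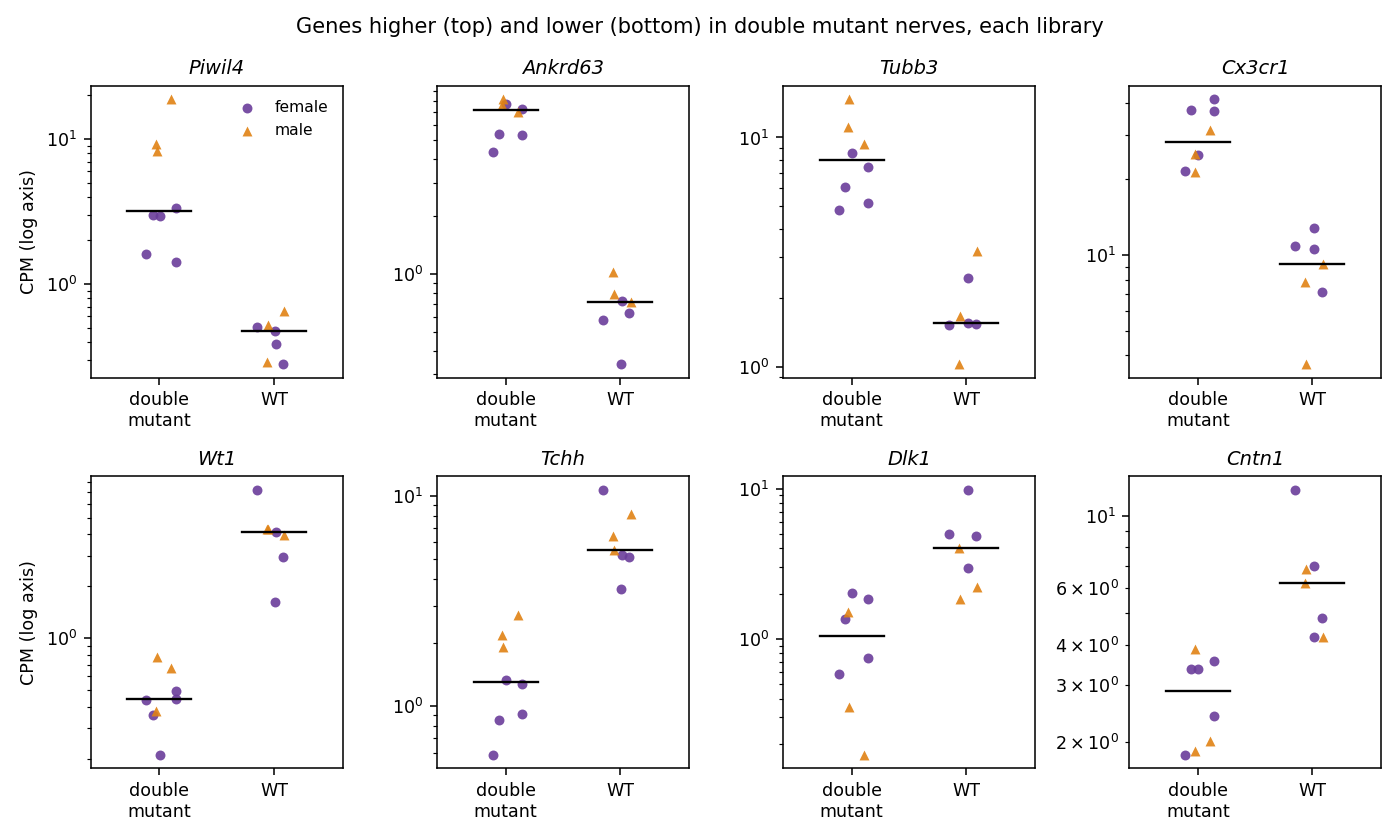
CPM on a log axis in each of the 8 double mutant (left) and 7 WT (right) libraries for 4 genes that rose (Piwil4, Ankrd63, Tubb3, Cx3cr1) and 4 that fell (Wt1, Tchh, Dlk1, Cntn1). Circles are females, triangles males and bars medians; the groups do not overlap except in Dlk1.

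Among the genes that fell, the transcription factor Wt1 had the smallest adjusted p (0.000234). Wt1 was at 0.210, 0.442 and 0.774 CPM in double mutants, against 1.62, 4.12 and 7.25 CPM in WT, without overlap (-3.09 ± 0.42). Cyp2j13, a cytochrome P450 gene, was at 0, 0.216 and 0.658 CPM in double mutants and 1.39, 2.10 and 3.78 CPM in WT, again without overlap (-3.26 ± 0.56, adjusted p = 0.00194). Trichohyalin (Tchh), a structural protein of hair follicles, fell to 0.584, 1.30 and 2.69 CPM in double mutants, against 3.59, 5.52 and 10.7 CPM in WT (-2.16 ± 0.31, adjusted p = 0.000295). The presynaptic scaffold gene Erc2 (-2.52 ± 0.48, adjusted p = 0.00483) and the tight junction gene Cldn14 (-1.79 ± 0.40, adjusted p = 0.0153) fell without overlap as well. Smaller decreases were seen in Mpdz and Prkch. Mpdz, a scaffold with many PDZ domains, was at 125, 140 and 207 CPM in double mutants and 205, 244 and 264 CPM in WT, where only the highest double mutant reached the lowest WT library (-0.66 ± 0.10, adjusted p = 0.000295). Protein kinase C eta (Prkch) was at 7.33, 8.72 and 14.4 CPM in double mutants and 13.8, 18.1 and 24.9 CPM in WT (-1.03 ± 0.17, adjusted p = 0.00103). Within plain and within G identifiers the log2 fold changes were -0.78 and -0.37 for Mpdz and -0.69 and -1.50 for Prkch.

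Other large decreases were called less firmly. The complement gene C6 (-2.49 ± 0.64, adjusted p = 0.0435) had a log2 fold change of 0.10 within plain identifiers and -3.12 within G identifiers, and leaving out any 1 of 12 libraries (each of the 8 double mutants and WT 4, 5, 6 and 7) ended its call (adjusted p 0.0501 to 0.197). Folh1, the membrane glutamate carboxypeptidase, fell by 2.00 ± 0.43 (adjusted p = 0.0133), with -0.22 within plain and -2.54 within G identifiers. Its call ended without WT 6 or without WT 7 (adjusted p 0.0522 and 0.0532). The kinase gene Cdkl4 (-3.05 ± 0.72, adjusted p = 0.0283) lost its call without double mutant 4, 6 or 8 or WT 4 (adjusted p 0.0550 to 0.110). Gabrr2, a rho subunit of the GABA-A receptor, fell by 1.91 ± 0.43 (adjusted p = 0.0180) and lost its call without WT 4 (adjusted p = 0.0909), without the sex term (0.0852) and when double mutants and WT were fitted alone (0.0636). The acyl-CoA thioesterase Them5 (-1.92 ± 0.47, adjusted p = 0.0354) lost it when any 1 of 9 libraries was left out (double mutants 1 to 6 and WT 2, 5 and 6; adjusted p 0.0523 to 0.0803).

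Of 35 lists of unequal size, cholesterol biosynthesis had the largest number of genes that fell (5, against 3 of 12 imprinted growth genes). All 22 tested genes of the list had a negative log2 fold change, with a median of -0.45 against 0.01 over all tested genes, and 5 of the 22 fell while none rose. Summed over the list, the level was 735, 1192 and 1603 CPM in double mutants, against 1539, 1812 and 2012 CPM in WT, and double mutant 7 was the only one above the lowest WT library. The share of genes called lower over the whole table was 0.863%, and the share called higher was 0.519%. These are the shares to set beside the calls of every list over both sexes. In 2 of the 22, Hsd17b7 among them, the groups did not overlap, where 0.208% of all genes were lower without overlap.

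The genes described here act at different steps of the pathway. Hmgcs1, the synthase that makes HMG-CoA at the entry of the pathway, was at 169, 279 and 606 CPM in double mutants, against 506, 572 and 615 CPM in WT, with 7 of 8 double mutants below the WT mean (-0.87 ± 0.19, adjusted p = 0.0115; 0.0563 without the sex term). Mevalonate kinase (Mvk), named here after its values were seen, was at 11.6, 12.6 and 17.5 CPM in double mutants and 16.2, 17.6 and 24.3 CPM in WT (-0.51 ± 0.11, adjusted p = 0.0152). Its call ended without WT 5 or WT 6 (adjusted p 0.0511 and 0.0615), with scaling to total counts (0.0568) and when double mutants and WT were fitted alone (0.0599). Squalene epoxidase (Sqle), the first oxygen-requiring step after squalene, was at 15.7, 31.0 and 49.3 CPM in double mutants and 46.1, 56.8 and 78.6 CPM in WT, and the groups overlapped only at their edges (-0.92 ± 0.19, adjusted p = 0.00917). Hsd17b7, a 3-keto sterol reductase, was at 13.8, 21.4 and 33.9 CPM in double mutants and 34.3, 39.8 and 62.1 CPM in WT, just without overlap (-0.94 ± 0.20, adjusted p = 0.00941).

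Promoters of 3 of the genes that fell are shown because sterol-regulated genes are classically controlled by sterol regulatory element-binding proteins (SREBPs) together with the CCAAT-binding factor NF-Y near the start site. The windows run from 250 bases before to 50 bases after the annotated start (RefSeq, GRCm38.p6) and are written on the strand of the gene. The windows are Hmgcs1 at chr13:119690101-119690400 (plus strand), Mvk at chr5:114444019-114444318 (plus strand) and Hsd17b7 at chr1:169969156-169969455 (minus strand). Capitals mark TCACNCCAC, 1 form of the sterol regulatory element, and CCAAT, both searched on both strands, so that ATTGG is CCAAT read on the other strand; no 2 matches overlap in these windows.
Hmgcs1: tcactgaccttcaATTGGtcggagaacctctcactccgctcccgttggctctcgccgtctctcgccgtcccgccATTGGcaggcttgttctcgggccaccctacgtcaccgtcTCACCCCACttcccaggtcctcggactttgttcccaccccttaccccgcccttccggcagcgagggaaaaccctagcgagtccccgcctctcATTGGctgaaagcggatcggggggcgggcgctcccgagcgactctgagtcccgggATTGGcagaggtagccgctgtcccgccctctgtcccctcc
Mvk: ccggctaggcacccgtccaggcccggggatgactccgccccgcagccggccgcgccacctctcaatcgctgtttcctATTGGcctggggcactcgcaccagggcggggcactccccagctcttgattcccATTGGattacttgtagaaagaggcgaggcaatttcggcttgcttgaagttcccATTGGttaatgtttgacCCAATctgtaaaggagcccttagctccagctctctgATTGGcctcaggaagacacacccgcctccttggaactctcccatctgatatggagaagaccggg
Hsd17b7: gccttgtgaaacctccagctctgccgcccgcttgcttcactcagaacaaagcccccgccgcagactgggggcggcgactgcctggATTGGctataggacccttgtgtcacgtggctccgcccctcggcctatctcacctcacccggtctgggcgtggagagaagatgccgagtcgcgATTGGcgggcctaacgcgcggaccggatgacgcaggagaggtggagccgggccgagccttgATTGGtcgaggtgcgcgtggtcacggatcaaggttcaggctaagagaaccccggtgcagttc
The Hmgcs1 window held 1 TCACNCCAC, 137 bases before the start, and 4 CCAAT; the Mvk window held 5 CCAAT and the Hsd17b7 window 3. Of 32851 promoter windows of the same length, 1.24% held a TCACNCCAC, 37.4% at least 1 CCAAT and 3.37% at least 3. Among the 20 windows of the 17 list members with an entry, 1 held a TCACNCCAC, 16 (80%) at least 1 CCAAT and 6 (30%) at least 3. A letter match is a description of the window and not evidence of binding.

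**Figure D3:**
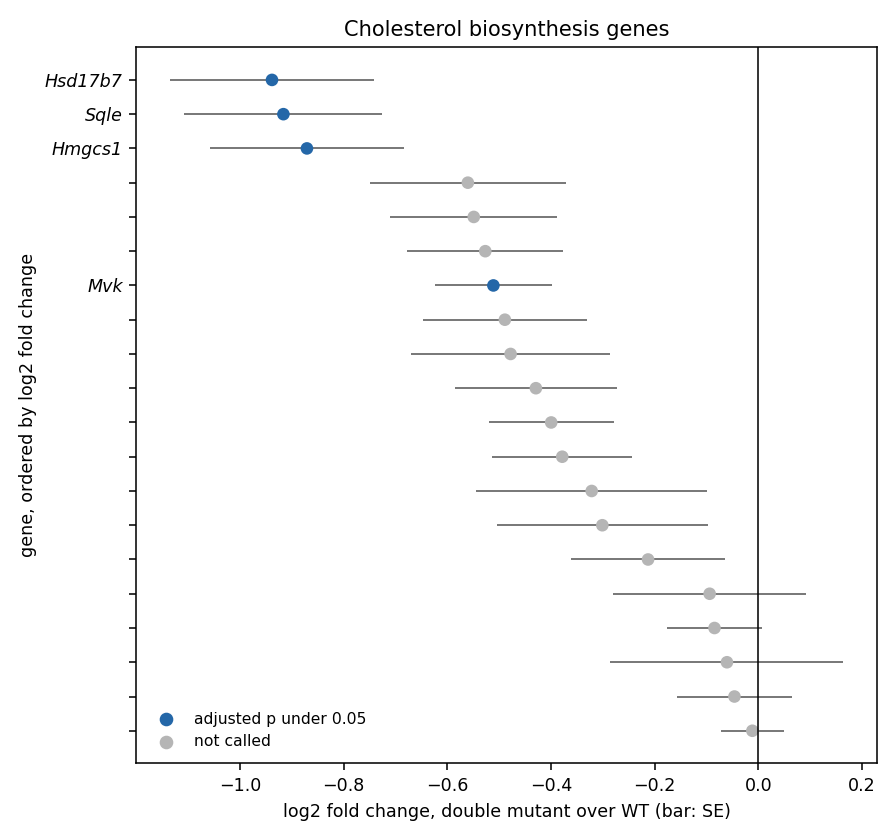
Log2 fold change of double mutant over WT nerves with its SE for 20 cholesterol biosynthesis genes, ordered by their value; the 4 of them that passed the test are blue and named. All 20 points lie below 0.

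The decrease of the cholesterol list was seen in both sexes and both identifier series as a median (-0.44 in females and -0.35 in males; -0.37 within plain and -0.42 within G identifiers), but single genes passed mostly in females. Within plain and within G identifiers the log2 fold changes were -1.41 and -0.22 for Hsd17b7, -1.27 and -0.44 for Sqle, -1.17 and -0.31 for Hmgcs1, and -0.14 and -0.89 for Mvk. In the test by sex, 9 of the 22 fell in females, where 4.28% of all genes did, and 1 (Mvk) fell in males, where 0.0584% of all genes did. With males fitted alone Mvk did not pass (edgeR adjusted p = 0.0545). Hsd17b7 had a log2 fold change of -1.26 in females (adjusted p = 0.00358) and -0.50 in males (adjusted p = 0.425), and its difference between sexes did not pass (-0.76, adjusted p = 0.267).

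Of 21 tested genes of cholesterol uptake, efflux and SREBP control, 2 rose and 2 fell, with a median of -0.18. Over all genes 0.519% rose and 0.863% fell. The gene of the sterol carrier Stard4 was among those that fell (-0.61 ± 0.15, adjusted p = 0.0354). The lipid-binding lipocalin Apod, an abundant nerve transcript, rose to 2765, 4680 and 6265 CPM in double mutants, against 2098, 2674 and 3590 CPM in WT (0.77 ± 0.18, adjusted p = 0.0236). Soat1, which esterifies cholesterol for storage, was higher in every double mutant than in any WT library (0.42 ± 0.11, adjusted p = 0.0462). These calls were of unequal firmness. Stard4 lost its call when any 1 of 7 libraries was left out (double mutants 1, 2, 3 and 5 and WT 1, 2 and 4; adjusted p 0.0520 to 0.0813), Soat1 when any library but WT 1 was (0.0509 to 0.103), and Apod without double mutant 6, WT 4 or WT 6 (0.0507 to 0.0659). Scaling to total counts ended the calls of all 3 (adjusted p 0.371 for Soat1, 0.148 for Apod and 0.0745 for Stard4). Of 21 fatty acid synthesis and elongation genes, whose median was 0.07, Elovl4, an elongase of very long chain fatty acids, alone changed (-1.56 ± 0.40, adjusted p = 0.0454), and its call ended without any 1 of double mutants 1 to 5 and WT 2, 4, 5 and 6 (0.0573 to 0.103).

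Part of the macrophage genes rose. Of 25 tested members, 23 had a positive log2 fold change (median 0.45), 3 rose and none fell, where 0.519% of all genes rose. In a bulk nerve sample, more cells of a type and more RNA per cell cannot be told apart. Cx3cr1, the fractalkine receptor of macrophages and microglia, was at 21.3, 28.2 and 41.6 CPM in double mutants, against 3.68, 9.18 and 12.8 CPM in WT. No double mutant was as low as the highest WT library (1.76 ± 0.26, adjusted p = 0.000295), and the rise was seen in females (1.66) and males (1.90). Trem2, a lipid-sensing receptor of phagocytes, was at 8.42, 12.6 and 16.9 CPM in double mutants and 3.95, 6.09 and 9.86 CPM in WT (0.94 ± 0.21, adjusted p = 0.0157; 0.103 with scaling to total counts). Aif1, which encodes the macrophage protein Iba1, rose by 0.77 ± 0.20 (adjusted p = 0.0432), a call that ended when any 1 of 11 libraries was left out (double mutants 2, 3, 4, 5, 6 and 8 and WT 2 to 6; adjusted p 0.0573 to 0.105). The list as a whole was uneven: its median was 0.64 in females and -0.01 in males, and 0.85 within plain and -0.28 within G identifiers. Its summed level was 2383, 2717 and 3558 CPM in female double mutants, against 1511, 2024 and 2605 CPM in female WT, and 1483, 1804 and 1905 CPM in male double mutants, against 1407, 1745 and 2268 CPM in male WT.

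Other immune lists held 1 call. Of 16 cytokine and chemokine genes (median 0.40), the interferon-induced chemokine Cxcl10 rose to 2.43, 4.21 and 8.44 CPM in double mutants, against 1.15, 1.32 and 4.06 CPM in WT (1.29 ± 0.34, adjusted p = 0.0493). The call for Cxcl10 was at the threshold and ended when any 1 of 12 libraries was left out (all but double mutant 5 and WT 2 and 4; adjusted p 0.0509 to 0.119). No gene passed among 15 complement genes (median 0.22; the list does not hold C6, which fell), 16 interferon-stimulated (0.20), 6 lymphocyte (-0.19) and 8 mast cell genes (0.69).

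Of 21 genes of the repair or immature Schwann cell state 3 rose, where 0.519% of all genes did, and none fell. The median was 0.36. Sox4, a transcription factor of immature glia, was at 22.5, 30.4 and 39.0 CPM in double mutants, against 11.7, 17.5 and 21.3 CPM in WT. The groups did not overlap, and Sox4 rose over both sexes (0.85 ± 0.15, adjusted p = 0.00194). It rose in females (0.60, adjusted p = 0.0498) and in males (1.23, adjusted p = 0.00601) as well. With females fitted alone the rise did not pass (adjusted p = 0.121). The cell cycle inhibitor gene Cdkn2a was at 3.50, 5.47 and 7.95 CPM in double mutants and 2.56, 2.89 and 3.78 CPM in WT (0.83 ± 0.18, adjusted p = 0.0136; 0.108 with scaling to total counts). Id2, an inhibitor of helix-loop-helix factors, rose by 0.66 ± 0.17 (adjusted p = 0.0459), a call lost without any 1 library other than double mutant 8 and WT 4 (adjusted p 0.0582 to 0.114). Jun, the factor that directs the repair state, was at 67.2, 80.3 and 109 CPM in double mutants and 50, 62.1 and 90.2 CPM in WT; all 8 double mutants were above the WT mean, but the difference did not pass (0.34 ± 0.14, adjusted p = 0.230). In females Jun rose (0.60, adjusted p = 0.0283), and in males it had -0.08 (adjusted p = 0.917). Ngfr, the low-affinity neurotrophin receptor, did not pass either (0.53 ± 0.25, adjusted p = 0.309).

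Of 14 genes of non-myelinating Schwann cells, Apod alone changed, and the median was 0.28. Gfap, the glial filament gene of these cells, was at 3.50, 6.22 and 15.8 CPM in double mutants and 1.39, 3.61 and 5.00 CPM in WT (1.13 ± 0.30, adjusted p = 0.0543). Among 18 neurotrophic ligand and receptor genes (median -0.28), the receptor tyrosine kinase Ret fell to 7.67, 12.6 and 16.3 CPM in double mutants, against 14.7, 33.8 and 49.2 CPM in WT (-1.30 ± 0.29, adjusted p = 0.0183). The difference in Ret was -0.07 within plain and -2.17 within G identifiers, and its call ended without WT 4 or WT 6 (adjusted p 0.0546 and 0.0676). Cyclin D1 (Ccnd1), which drives entry into the cell cycle, rose to 117, 153 and 282 CPM in double mutants, against 75.5, 96.4 and 124 CPM in WT (0.79 ± 0.15, adjusted p = 0.00487). It was the only 1 of 16 cell cycle genes to pass, while 15 of the 16 had a positive log2 fold change (median 0.27).

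The axonal and neuronal list was made of genes used as markers of neurons. Which cells of the nerve their transcripts came from cannot be told from bulk samples. Of 11 tested, 1 rose (Tubb3) and 1 fell (Sncg), where 0.519% of all genes rose and 0.863% fell. A negative log2 fold change was fitted for 10 (median -0.62), and the list summed to 154, 191 and 358 CPM in double mutants and 259, 434 and 560 CPM in WT. Gamma-synuclein (Sncg), a protein of peripheral neurons, fell to 99.1, 132 and 250 CPM in double mutants, against 154, 325 and 433 CPM in WT (-1.16 ± 0.21, adjusted p = 0.00291), and it made up most of the list's sum. The neurofilament genes Nefl, Nefm and Nefh had log2 fold changes between -0.94 and -1.09 without passing. In females alone 5 members of the list fell (median -0.91), where 4.28% of all genes did, and within G identifiers the median was -0.10.

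Of 16 genes of the node of Ranvier, paranode and juxtaparanode, 2 fell, where 0.863% of all genes did, and none rose, with a median of -0.06. Contactin 1 (Cntn1), the axonal adhesion molecule of the paranodal junction, was at 1.82, 2.88 and 3.87 CPM in double mutants, against 4.23, 6.21 and 12 CPM in WT, without overlap (-1.22 ± 0.24, adjusted p = 0.00616). Its log2 fold change was -1.27 in females and -1.14 in males, of which the female one passed by itself (adjusted p = 0.0238 against 0.187). Epb41l2, the Schwann cell protein 4.1G, fell by 0.38 ± 0.09 (adjusted p = 0.0301), a call that ended without any 1 of double mutants 2, 3 and 8 and WT 2, 4, 5, 6 and 7 (adjusted p 0.0532 to 0.0738). In the SIPA1 family and Rap signalling list, whose 17 tested genes had a median of -0.07, the Rap exchange factor Rapgef4 alone changed. Rapgef4 was at 6.57, 11.0 and 24.2 CPM in double mutants and 22.3, 25.6 and 43.9 CPM in WT (-1.10 ± 0.26, adjusted p = 0.0258), with -1.91 within plain and -0.03 within G identifiers. Its call ended without any 1 of double mutants 1, 2, 3 and 5 and WT 2 (adjusted p 0.0541 to 0.0742).

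Members of the matrix and imprinted growth lists also fell. Of 24 basal lamina and matrix genes, 19 were negative (median -0.24), and 3 fell (Lox, Col15a1 and Col4a2), where 0.863% of all genes did. Lysyl oxidase (Lox), which cross-links collagen, was at 84.7, 137 and 235 CPM in double mutants and 169, 288 and 389 CPM in WT (-0.89 ± 0.18, adjusted p = 0.00737). The basement membrane collagen genes Col15a1 (-0.91 ± 0.20, adjusted p = 0.0168) and Col4a2 (-0.82 ± 0.21, adjusted p = 0.0408) fell, but differed by only -0.24 and -0.16 within plain identifiers, against -1.35 and -1.37 within G identifiers. Without WT 5 or WT 6 the call for Col15a1 ended (adjusted p 0.0558 and 0.0724), and that for Col4a2 ended without any 1 library other than double mutant 5 and WT 1 and 3 (0.0532 to 0.0985).

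Of 12 imprinted growth genes, 10 were negative (median -0.40) and 3 fell, where 0.863% of all genes did. Dlk1, a membrane protein with EGF repeats that restrains adipocyte differentiation, was at 0.168, 1.05 and 2.03 CPM in double mutants and 1.84, 4.02 and 9.82 CPM in WT, with overlap only at the edge (-2.05 ± 0.34, adjusted p = 0.00141). Insulin-like growth factor 2 (Igf2) was at 29.2, 43.1 and 57.5 CPM in double mutants and 40.3, 68.2 and 102 CPM in WT (-0.64 ± 0.12, adjusted p = 0.00405; 0.165 without the sex term). Mest was at 9.59, 11.7 and 85.1 CPM in double mutants and 14.7, 114 and 309 CPM in WT (-2.73 ± 0.62, adjusted p = 0.0206). Its level was spread widely among WT libraries, the difference was -0.67 within plain and -3.09 within G identifiers, and the call ended without WT 4 (adjusted p = 0.0904) and without the sex term (0.122). Wt1, described above, was the only 1 of 10 genes of the perineurial list to change.

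Tyrp1, an enzyme of melanin synthesis, was at 0.146, 0.726 and 3.62 CPM in double mutants, against 0, 0.0677 and 0.145 CPM in WT. The groups were apart only narrowly, and the fitted rise of 4.42 ± 0.76 (adjusted p = 0.00194) depends on the prior count because WT was near 0. The log2 fold change was 2.67 within plain and 6.55 within G identifiers. It was 1 of 3 tested genes of the melanocyte lineage and the only 1 to change. Of 18 autophagy and lysosome genes (median 0.00) 1 rose, where 0.519% of all genes did. Over both sexes no member passed in the lists for fibroblasts (17 genes, median 0.20), endothelium (16, -0.13), pericytes and vascular muscle (11, -0.30), erythrocytes (5, -0.95), immediate early genes (12, 0.06), the unfolded protein response (17, 0.05), heat shock (11, -0.12), mitochondrially encoded genes (13, 0.58), myelin sphingolipid and galactolipid enzymes (16, -0.13), myelination transcription factors (16, -0.06) and inherited neuropathy genes (32, -0.18). In females 5 of the 16 sphingolipid and galactolipid enzymes, 9 of the 32 neuropathy genes and 1 of the 16 myelination factors fell, where 4.28% of all genes did. In males 2 of those factors, Pou3f1 (2.19, adjusted p = 0.0272) and Pou3f2 (1.73, adjusted p = 0.0290), rose, where 0.403% of all genes did.

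Markers of 2 neighbouring tissues varied by large factors between libraries. The 19 skeletal muscle genes summed to 42.0, 40250 and 61040 CPM in double mutants and 156.9, 4666 and 80480 CPM in WT, and none passed the test (median 0.57). The 14 adipocyte genes summed to 5480, 10780 and 19010 CPM in double mutants and 7487, 13760 and 20140 CPM in WT, and none passed (median -0.39). With the muscle score as a covariate 239 genes were called, 194 of them among the 213, and 46.0% of the 239 were higher. With the adipocyte score as a covariate 788 genes were called, 212 of them among the 213, and 24.1% of the 788 were higher. The median of the cholesterol list was -0.46 with the first covariate and -0.45 with the second. With only double mutants and WT in the fit, 202 of the 213 genes were tested and 201 genes were called (140 of the 213). Adding the muscle score to that fit gave 125 calls (96 of the 213).

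**Figure D4:**
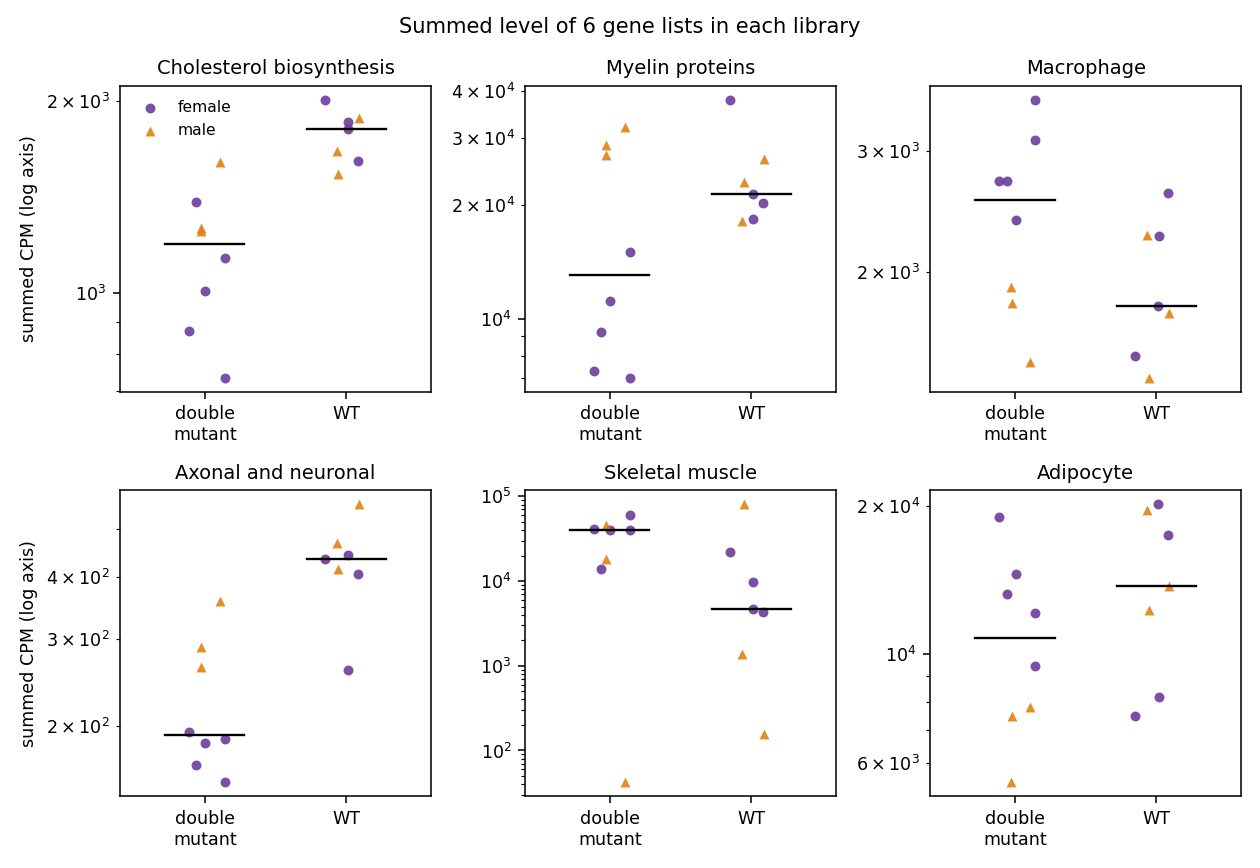
Summed CPM on a log axis in each double mutant (left) and WT (right) library for 6 gene lists: cholesterol biosynthesis, myelin proteins, macrophage, axonal and neuronal, skeletal muscle and adipocyte genes. Muscle genes span 42.0 to 80480 CPM and overlap widely, while the cholesterol sums overlap only between 1539 and 1603 CPM.

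Myelin protein genes gave no call over both sexes, and they differed in opposite directions in the libraries of females and of males. None of the 26 passed (median -0.30, 19 negative). Mbp had a pooled log2 fold change of -0.46 ± 0.29, and the Schwann cell transcription factors Egr2 (-0.27 ± 0.35) and Sox10 (-0.39 ± 0.34) did not pass either. The summed level of the 26 was 6995, 9242 and 14980 CPM in female double mutants, against 18310, 20830 and 37900 CPM in female WT, and the groups did not overlap. In males the sum was 27150, 28870 and 32100 CPM in double mutants, against 18130, 22960 and 26480 CPM in WT, again without overlap but in the other direction. Within females 13 of 26 fell (median -1.07), where 660 of all genes (4.28%) did. Pmp22 had a log2 fold change of -1.48 ± 0.30 in females (adjusted p = 0.00594) and 0.23 ± 0.37 in males (adjusted p = 0.847), and Mbp -1.19 in females (adjusted p = 0.0197) and 0.42 in males (adjusted p = 0.646).

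Within males 1 of the 26, the gap junction gene Gjc3, rose (1.66, adjusted p = 0.0180), where 0.403% of all genes did. All 26 had a lower log2 fold change in females than in males (median difference -1.71), and no single difference passed the test, in which 1 of 15403 genes did (0.00649%). For Pmp22 the adjusted p of the difference was 0.0706. With the spread estimated from the compared groups alone, 18 of the 26 differences passed, as did those of 567 of all genes. Within the plain identifiers 17 of the 26 fell in double mutants (median -1.20), as did 736 of all genes. Within G identifiers all 26 were positive (median 0.63) and 2 rose, as did 153 of all genes. Since female double mutants were all plain and male double mutants all G, the sexes and the identifier series give the same split of the double mutants and cannot be told apart. Muscle genes summed to 13810, 40480 and 61040 CPM in female double mutants, against 4282, 7169 and 22210 CPM in female WT. In males they summed to 42.0, 18090 and 46270 CPM in double mutants, against 156.9, 1359 and 80480 CPM in WT. The median muscle sum was thus higher in double mutants of both sexes. With the muscle score as a covariate the sex difference passed for 2 of all genes, and for 541 with the compared groups alone. Beyond these fits the part of muscle in the myelin values was not tested. Double mutants 2 to 5 also share 1 leading identifier. Without those 4 libraries 70 genes were called and 78.6% of them were higher.

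Over the whole table the count of calls differed between the tests of females and of males. In females 743 genes were called (4.82%), 83 higher (0.539%) and 660 lower (4.28%). In males 71 genes were called (0.461%), 62 higher (0.403%) and 9 lower (0.0584%). All 213 genes called over both sexes had the same sign in females and in males, which is no separate support since the libraries are the same; over all genes, 3648 were positive and 3309 negative in both. The 80 higher genes had median log2 fold changes of 0.74 in females and 1.22 in males, and the 133 lower genes -0.89 in females and -0.55 in males. In the fit by genotype and sex over all 32 libraries, 12 genes were called in both sexes, each with the same sign. Among them were Piwil4 (2.55 in females, 4.60 in males), Ankrd63 (3.37, 3.16) and Cx3cr1 (1.66, 1.90). When males were fitted alone, Ankrd63 (adjusted p = 0.113) and Cx3cr1 (adjusted p = 0.0807) did not pass, while Piwil4 did (adjusted p = 0.01325).

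The 1 gene whose difference between sexes passed was Rap1gap, a GTPase-activating protein for Rap1 (female minus male log2 fold change -2.52 ± 0.43, adjusted p = 0.0417). Rap1gap was at 8.91, 11.9 and 14.6 CPM in female double mutants, against 11.5, 18.3 and 25.3 CPM in female WT. In males it was at 47.8, 58.2 and 64.8 CPM in double mutants, against 13.8, 15.2 and 16.5 CPM in WT. The 3 male double mutants were thus above every other library of the 2 genotypes. The male difference passed (1.91 ± 0.33, adjusted p = 0.00601), and the female one did not (-0.61 ± 0.27, adjusted p = 0.200). The 8 C3-PMP22 libraries, labelled female or male, were at 26.6 to 59.53 CPM, also above every WT library. No gene passed for the sex difference when any 1 of 11 libraries was left out (all double mutants but 4, and WT 2, 3, 5 and 7), with scaling to total counts, with a term for the identifier series or with the adipocyte score. Without double mutant 4 it passed for 206 genes, without WT 6 for 388 and by DESeq2 for 597.

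**Figure D5:**
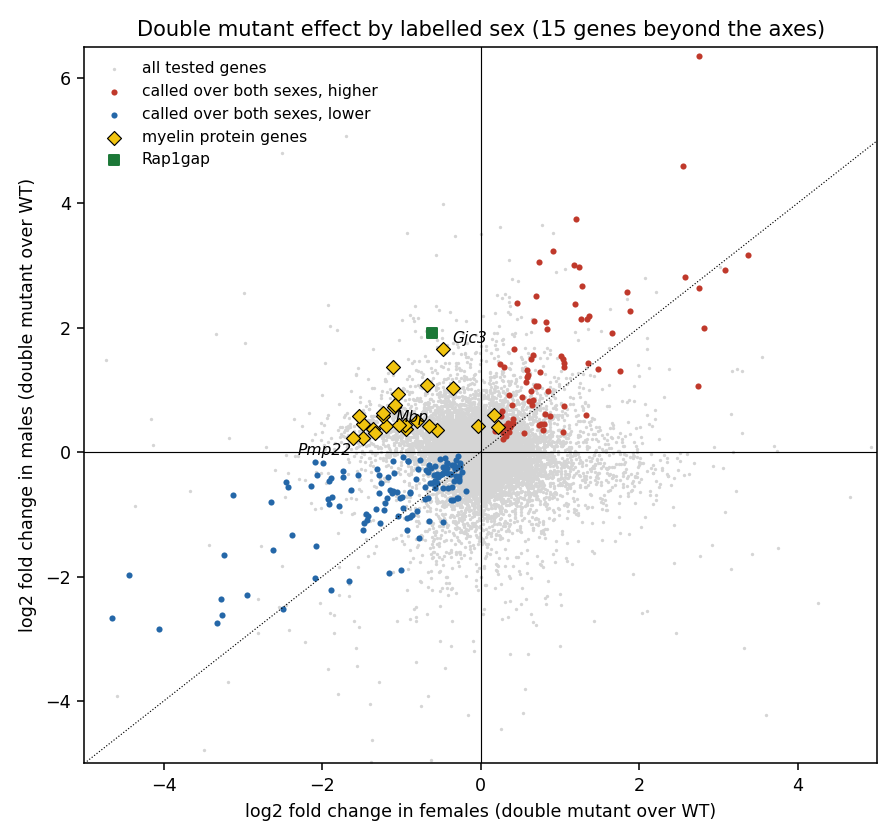
Log2 fold change of double mutant over WT nerves in females (horizontal axis) and in males (vertical axis) for each tested gene, except 15 genes beyond the axes. Genes called over both sexes (red higher, blue lower) lie in the upper right and lower left quadrants, 25 myelin protein genes (yellow diamonds) lie mostly in the upper left, and Rap1gap (green square) lies at -0.61 in females and 1.91 in males.

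The single genotypes place the double mutant values. They share the WT libraries with this comparison, so only values side by side are given. C3-PMP22 nerves against WT had 106 called genes (0.688%; 58 higher and 48 lower), and Sipa1l2 -/- nerves against WT had 0 by edgeR, with 803 genes at an unadjusted p under 0.05. Piwil4 had a log2 fold change of 3.61 in double mutants, 3.73 in C3-PMP22 and -0.24 in Sipa1l2 -/- nerves, each against WT. For Ankrd63 the values were 3.27, 3.18 and -0.34, for Cx3cr1 1.76, 1.58 and 0.28, and for Wt1 -3.09, -2.46 and -0.03 in the same order of genotypes. Hsd17b7 had -0.94 in double mutants, -0.70 in C3-PMP22 and -0.05 in Sipa1l2 -/- nerves. The cholesterol list had medians of -0.45 in double mutants, -0.59 in C3-PMP22 and -0.24 in Sipa1l2 -/- nerves. Mest differed from this order, with -2.73 in double mutants, -1.96 in C3-PMP22 and -1.95 in Sipa1l2 -/- nerves, as did Cdkl4 with -3.05, -1.25 and -2.36. Mest, C6, Ret, Col4a2 and Sncg were each highest in library 2 of C3-PMP22 and library 7 of Sipa1l2 -/- nerves. In C3-PMP22 2 they were 249.1, 29.39, 37.61, 801.8 and 324.2 CPM, against 5.961, 2.459, 6.631, 384.1 and 143.0 CPM in C3-PMP22 3. In Sipa1l2 -/- 7 they were 257.9, 29.91, 43.78, 1130 and 467.7 CPM, against 13.03, 0.4493, 13.85, 407.8 and 205.3 CPM in Sipa1l2 -/- 6. These decreases are not independent of each other, and their cause was not tested.

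C3-PMP22 against Sipa1l2 -/- nerves shares no library with the comparison of double mutant and WT. It had 103 called genes (0.669%), and 49 genes were called in both comparisons, which is 23% of the 213 and 47.6% of the 103, all 49 with the same sign. Of the 80 higher genes 78 were positive there (median 0.54), and of the 133 lower genes 114 were negative there (median -0.20), while over all tested genes 58.1% were positive (median 0.035). The list of cholesterol genes had a median of -0.33 there.

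No gene passed between double mutant and C3-PMP22 nerves by edgeR (0%; smallest adjusted p = 0.601; 1243 genes at an unadjusted p under 0.05; 11 by DESeq2). The smallest adjusted p was shared by Rab4a, a small GTPase of endosome recycling (-0.66 ± 0.15), the matrix Gla protein gene Mgp (0.66 ± 0.15) and the Y-linked helicase gene Ddx3y (-6.52 ± 1.49), the last moving with the 2 C3-PMP22 libraries whose labelled sex did not match. The median 95% interval extended 0.31 on the log2 scale to either side of each fitted difference. The interaction of transgene and Sipa1l2 genotype, that is whether the labelled Sipa1l2 genotype shifts a gene differently with and without the transgene, was also called for no gene by edgeR (0%; smallest adjusted p = 0.700; 987 genes at an unadjusted p under 0.05; 3 by DESeq2). Among its smallest p-values were those of Fam110c (2.48 ± 0.66) and the ciliary kinesin gene Kif7 (0.73 ± 0.19). A p that misses the threshold does not show that the genotypes are alike, and the interaction's median interval was wider, at 0.441 to either side.

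Changed settings ended further calls of named genes. A term for the identifier series did so for Pgr, Cdkl4, C6, Folh1, Soat1, Id2, Aif1 and Col4a2 (adjusted p 0.05005 to 0.0921). Fitting double mutants and WT alone did so for Stard4, Epb41l2 and Cxcl10 (adjusted p 0.0587 to 0.0809). Scaling to total counts did so for Pgr, C6, Elovl4, Epb41l2, Id2, Aif1, Cxcl10, Col15a1 and Col4a2 (adjusted p 0.0503 to 0.204), and leaving out the sex term for Cdkl4, C6, Soat1, Elovl4, Epb41l2, Id2, Cxcl10 and Col4a2 (adjusted p 0.0521 to 0.0922).

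Some named genes share exon sequence with another gene. The annotation places exons of Piwil4, Clca3a2, Chrm1, Cx3cr1, Epyc, Klk8, Cdkl4, Erc2, Hmgcs1, Sox4, Jun, Cxcl10 (with Art3), Mest (with Copg2), Lox, Col15a1, Col4a2 (with Col4a1), Rapgef4, Kif7 and Ccnd1 across from exons of a gene on the other strand, and those of S100a4 and Igf2 over a gene on the same strand. The sources used here do not say if reads were counted by strand, so reads over the shared bases cannot be told apart. The shared bases were most of the exon sequence of Igf2, Sox4 and S100a4. They were a small part of that of Piwil4, Cx3cr1, Erc2, Lox, Col15a1 and Col4a2, and the other genes lay between. Reads over the remaining exon sequence of a gene are not affected by these overlaps.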

How the data were processed

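The authors deposited 1 table of RSEM estimated counts per mouse gene and library, the unit of all values used here. Trim Galore, FastQC, RSEM and the builds GRCm38 and mm10 are named in the submitters' processing notes; the sources used here give no aligner, settings or strand handling. Per the labels' protocols, sciatic nerve RNA was purified by TRIzol and columns, DNase-treated, selected for polyadenylation and sequenced on a NovaSeq instrument. These expected counts, as deposited, were rounded to whole numbers. Gene positions came from the GRCm38 annotation and promoters from RefSeq (GRCm38.p6).

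Genes were filtered with filterByExpr (minimum count 10, minimum total 15), scaled by TMM, and tested with edgeR 4.0.16 (glmQLFit, glmQLFTest; R 4.3.3) over all 32 libraries, modelling genotype and the labelled sex. The SE is the absolute log2 fold change over the square root of F. A second fit with genotype by sex gave the effects in females and males and their difference. DESeq2 1.42.0 was an alternative. Simulated data with known changes were tested: of genes changed 1.5-fold, 2-fold and 4-fold, 38.8%, 74.6% and 89.4% were recovered for double mutant against WT over 15403 genes, and 6 unchanged genes were called. The simulated libraries were drawn independently around a common mean per gene. They held no difference by sex or identifier series and no shared variation in muscle, fat or myelin genes. These shares therefore check the fit and do not give the error in the real data. Tested genes held at least 99.7% of each library's counts. Precision is limited by the number of libraries, and the depth of 11310787 to 16990990 counts covers counting error only.

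The comparison, its members and all 35 gene lists were chosen with earlier results of these data known. Named genes were a panel (Pmp22, Sipa1l2, Mbp, Egr2, Sox10, Jun, Ngfr), the 12 largest fold changes per direction of called genes whose mean reached 1 CPM, the 5 smallest adjusted p-values per direction, and up to 4 called genes per list. For the sex difference, double mutant against C3-PMP22 and the interaction, up to 6 called genes per direction, or the 3 with the smallest p where none was called, were named. Some genes that this rule names are not reported here, though they count in the totals and the lists. Alternatives comprised 20 settings and leaving out each of 15 libraries; 2 settings, leaving out double mutants 2 to 5 and the muscle covariate within the compared groups, were chosen after seeing the data.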

Additional observations from a re-analysis of the deposited data

Results flagged for a closer look

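Single libraries that stood apart from the rest of their group were sought in 200 sets of values (named genes and list sums), and 26 were found; chance flags about 1 in 20 groups. Their cause was not tested. WT 2 stood apart upward in Sox10 (289.2 CPM), Ngfr (66.29 CPM), Emid1 (14.14 CPM), Sema4f (2.829 CPM), Cntn1 (12.04 CPM) and Rapgef4 (43.95 CPM), in the summed myelin protein genes (37900 CPM) and in the summed myelination transcription factors (1977 CPM). Without WT 2 the median log2 fold change of the myelin protein genes was -0.09, against -0.30 with it. Double mutant 7 stood apart in Piwil4 (18.85 CPM), Cdkl4 (0.8416 CPM), Mest (85.09 CPM) and Folh1 (15.23 CPM), and double mutant 6 in Sema4f (7.88 CPM), S100a4 (286.4 CPM) and Ccnd1 (282.0 CPM). Double mutant 3 was highest in Clca3a2 (22.11 CPM), Pgr (8.392 CPM) and the lymphocyte sum (1065 CPM). Double mutant 2 was highest in Prkch (14.42 CPM) and the interferon-stimulated sum (578.5 CPM), and double mutant 5 in Fam110c (3.789 CPM). Among other WT libraries, WT 6 was highest in Dlk1 (9.818 CPM), WT 7 in Folh1 (96.61 CPM) and the immediate early sum (556.2 CPM), WT 4 in Id2 (21.69 CPM) and WT 3 in the skeletal muscle sum (80480 CPM).

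In Rap1gap all 3 male double mutants and all 8 C3-PMP22 libraries were above all 7 WT libraries. The difference between sexes in the double mutant effect passed a direct test there (female minus male log2 fold change -2.524, edgeR adjusted p = 0.0417). No gene passed that test when any 1 of 11 libraries was left out (all double mutants but 4, and WT 2, 3, 5 and 7), with scaling to total counts, with a term for the identifier series or with the adipocyte score. The sexes of the double mutants fall in separate identifier series, which cannot be told apart from sex.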

How the results depend on the processing

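All 213 calls between double mutant and WT were kept by DESeq2, which called 499 genes, and 208 were kept with DESeq2's size factors in edgeR. Scaling by total counts gave 118 (103 of the 213 kept), no sex term 134, the adipocyte score as covariate 788, males only 36, plain identifiers only 850, G identifiers only 438, the compared groups with a muscle covariate 125, and leaving out double mutants 2 to 5 gave 70 (46 kept, 213 with the same sign). Calls in females only numbered 312. Leaving out single libraries gave 112 to 293. DESeq2 called 11 genes between double mutant and C3-PMP22 and 3 for the interaction; single libraries left out gave 0 for each. The 1 sex difference became 0 under total counts, the replicate block, the identifier series term and the adipocyte score, 2 with the muscle score, 597 by DESeq2, 60 with sex taken from sex-linked genes, 567 with only the compared groups and 541 with those groups and the muscle score; single libraries left out gave 0 to 388. C3-PMP22 against Sipa1l2 -/- had 228 calls by DESeq2, 189 with the adipocyte score and 95 to 120 with single libraries left out. Genes without overlap numbered 79 to 169 with single libraries left out (169 without WT 1, 130 without double mutant 7, 129 without WT 3). The cause of these shifts was not tested.

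Same-numbered samples were not paired by the labels: over 7 pairs the correlation of deviations was between -0.30 and 0.37, with 2 over 0.1 and 1 sample correlating best with its own number. The replicate block gave 309 calls (189 of the 213 kept).

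Signs reversed in panel genes that were not called, and in C6 (0.10 within plain identifiers). With males only the log2 fold changes were 0.22 for Pmp22, 0.41 for Mbp, 0.46 for Egr2, 0.51 for Sox10 and -0.09 for Jun. Within G identifiers they were 0.46, 0.57, 0.62, 0.65 and -0.01 for the same genes. Without double mutants 2 to 5, Mbp had 0.10, Egr2 0.31 and Sox10 0.15. Ngfr had -0.03 in females only and within plain identifiers. Sipa1l2 had -0.00 with DESeq2 and its size factors, -0.07 with total counts, -0.02 without a filter, -0.05 with the compared groups, -0.01 without C3-PMP22 7 and 8, -0.10 with the replicate block, -0.16 with the adipocyte score, -0.57 in females only, -0.58 within plain identifiers and between -0.12 and 0.15 with single libraries left out (-0.10, -0.03, -0.02, -0.05 and -0.08 among them).

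Depth was between 11030976 and 16990990 counts over all libraries. The number of libraries limits what was detectable, and 2271 genes had an unadjusted p under 0.05 by edgeR.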
